A study of Rattus norvegicus with 3 samples.

Results

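Salivary secretion is switched on by autonomic nerves, and the receptors that read their transmitters were followed here in the rat's 3 major salivary glands. The set comprised 9 genes, namely the muscarinic receptors Chrm1 and Chrm3, the adrenergic receptors Adra1a, Adra1b, Adra1d and Adrb1, the vasoactive intestinal peptide receptors Vipr1 and Vipr2, and the substance P receptor Tacr1. Members were taken by gene name from the array's own annotation, control spots left out, which gave 13 probes of the 41012 on the array and 9 of the 16138 genes that could be named. Chrm1, Adra1b and Vipr2 had several probes. A total of 8 probes, from 7 genes, were well above background on at least 1 array, 5 probes were so on all 3 arrays, and 5 probes were not well above background on any array.

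RNA came from the sublingual gland, the gland labelled submandibular and the parotid gland of normal male Wistar rats, 10 weeks old, with 1 single-colour array (Cy3) per gland and 500 ng of total RNA labelled for each. The study used 3 rats, and which of them gave the RNA of each array, or whether RNA was pooled, is not stated in its labels. With 1 array per gland there was no replicate of a gland, no p-value could be given, and every difference below compares 1 array with another. The arrays shared 1 slide and 1 scan, which leaves gland and slide position as factors that cannot be told apart. Whole pieces of gland were extracted, so fewer cells of a type and less RNA per cell cannot be told apart either.

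The labels were set against marker genes. Serous acinar markers, such as amylase, summed to 22.3 and 23.3 times the 75th percentile signal on the sublingual and submandibular-labelled arrays, against 7658 times on the parotid array, and mucous markers summed to 1719 and 1735 times, against 26.6 times. Of that parotid sum Spdef gave 25.4. Not all mucous markers went that way. Named after its values were seen, Muc5b came out 5.72-fold and 4.46-fold lower than in the parotid. Those folds use values that were not well above background, so they are not firm minima. Tff3, also named after its values were seen, was well above background on the submandibular-labelled array alone. Granular convoluted duct products, which define the submandibular gland of male rats, went against the label. Of 8 such genes compared between that array and the parotid array, 0 were 2-fold or more apart in either direction, where 21.9% of all genes were. The summed signal of the list was 421, 542 and 476 times the 75th percentile on the sublingual, submandibular-labelled and parotid arrays. The array is therefore called submandibular-labelled throughout.

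Acetylcholine from parasympathetic nerves acts on muscarinic receptors that couple through Gq to phospholipase C and calcium release, which drives fluid secretion. Noradrenaline from sympathetic nerves acts on alpha-1 receptors, which also couple to Gq, and on beta receptors, which couple through Gs to adenylyl cyclase and drive release of stored protein, best known from the parotid amylase granules. Vasoactive intestinal peptide and substance P are released with acetylcholine from parasympathetic endings, the first raising cyclic AMP and the second calcium.

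Promoter sequence was available from RefSeq (assembly GRCr8) for 8 of the 9 genes. The 250 bases before the annotated gene start are printed, 5′ to 3′ on the gene's strand, for Chrm3, Vipr1 and Adrb1. Those are the receptors of the acetylcholine, peptide and beta-adrenergic arms that were at least 2-fold apart from the parotid on both other arrays. Capitals mark matches, on either strand, to the motifs searched.
Chrm3, chr17:64696677-64696926 (+): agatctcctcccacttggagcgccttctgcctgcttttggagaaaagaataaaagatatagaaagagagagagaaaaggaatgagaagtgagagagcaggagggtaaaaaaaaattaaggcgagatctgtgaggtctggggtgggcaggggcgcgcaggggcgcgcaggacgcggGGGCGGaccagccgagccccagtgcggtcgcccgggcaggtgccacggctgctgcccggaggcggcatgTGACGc
Vipr1, chr8:130187511-130187760 (+): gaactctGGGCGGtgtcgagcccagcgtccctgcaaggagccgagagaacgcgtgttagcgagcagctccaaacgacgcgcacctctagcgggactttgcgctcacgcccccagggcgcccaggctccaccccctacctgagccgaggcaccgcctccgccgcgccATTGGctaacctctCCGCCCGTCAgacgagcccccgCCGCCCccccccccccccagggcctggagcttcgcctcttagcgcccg
Adrb1, chr1:265776853-265777102 (+): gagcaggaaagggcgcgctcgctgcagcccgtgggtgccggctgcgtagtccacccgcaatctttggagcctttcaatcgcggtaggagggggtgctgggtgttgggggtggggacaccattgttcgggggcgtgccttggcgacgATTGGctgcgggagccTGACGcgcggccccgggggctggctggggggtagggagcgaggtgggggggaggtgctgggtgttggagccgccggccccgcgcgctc
The motifs were the full cyclic AMP response element TGACGTCA, its core TGACG, the GC box GGGCGG, the TATA box TATAAA, the CCAAT box CCAAT and the AP-1 site TGANTCA. The core is part of the full element, and in Vipr1 a reverse-strand GC box overlaps a reverse-strand core by 1 base. None of the 8 promoters held the full element in this window, which 1.59% of 33469 promoters of the same length do. The core was found once each in Chrm3, Vipr1, Adrb1, Tacr1 and Chrm1, beginning at -6 in Chrm3, -65 in Vipr1 and -88 in Adrb1 relative to the gene start, against 18.2% of all promoters. GC boxes numbered 3 in Vipr1, 1 in Chrm3 and 1 in Vipr2 (30.5% of all promoters hold 1 or more). A CCAAT box lay in Vipr1 and Adrb1 (34% of all promoters), and the Tacr1 window held the only TATA box (12.9%), while Adra1b and Adra1d matched none of the motifs. These matches describe letters in the sequence and were not tested for binding.

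Levels are given as processed signals in the scanner's arbitrary units and, for differences, as log2 of the signal relative to the 75th percentile of each array, which was 244 on the sublingual, 228 on the submandibular-labelled and 186 on the parotid array. Because of that scaling a ratio of raw signals is not the fold. Levels of different probes are not comparable with each other, since probes differ in how brightly they report. A gene that failed the background limit on 1 side only is given as a minimum, written "at least". Where the failing value lay above the array's lowest passing level, that value itself was used, and the minimum is not firm. This held below for the sublingual values of Adcy4, Prkar1b and Sstr1 and for the parotid value of Cd52.

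Chrm3, the M3 receptor that carries most cholinergic drive to fluid secretion, had the widest measured spread of the set. Its probe (rn4 chr17:71218326-71218385) read 6820 on the sublingual array and 5590 on the submandibular-labelled array, against 943 on the parotid array. Both mucous-rich glands were thus high and the parotid low, and the scanner software's own error was 0.14 (log2) on each array. The difference from the parotid was 2.46 (log2; 5.51-fold) for the sublingual array and 2.27 (4.84-fold) for the submandibular-labelled array. Between the sublingual and submandibular-labelled arrays it was 0.19 (1.14-fold). That is hardly more than the error of a single value, and a difference between arrays carries a larger error. Among all genes compared, 96.2% had a smaller difference than Chrm3 between sublingual and parotid, and 95.8% between submandibular-labelled and parotid.

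Chrm1, the M1 receptor, which also couples to Gq, was near the detection limit. Its second probe read 33.0 (sublingual), 37.7 (submandibular-labelled) and 30.6 (parotid), and it was well above background on all of them. Sublingual minus parotid was -0.28, submandibular-labelled minus parotid was 0.01, and sublingual minus submandibular-labelled was -0.29, against software errors of 0.21 to 0.22. These are errors of single values, and a difference between arrays carries a larger error, so none of these differences can be set apart from it. The first Chrm1 probe, at 17.4, 21.6 and 9.48 in the same order of glands, was not well above background on any array.

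**Figure D1:**
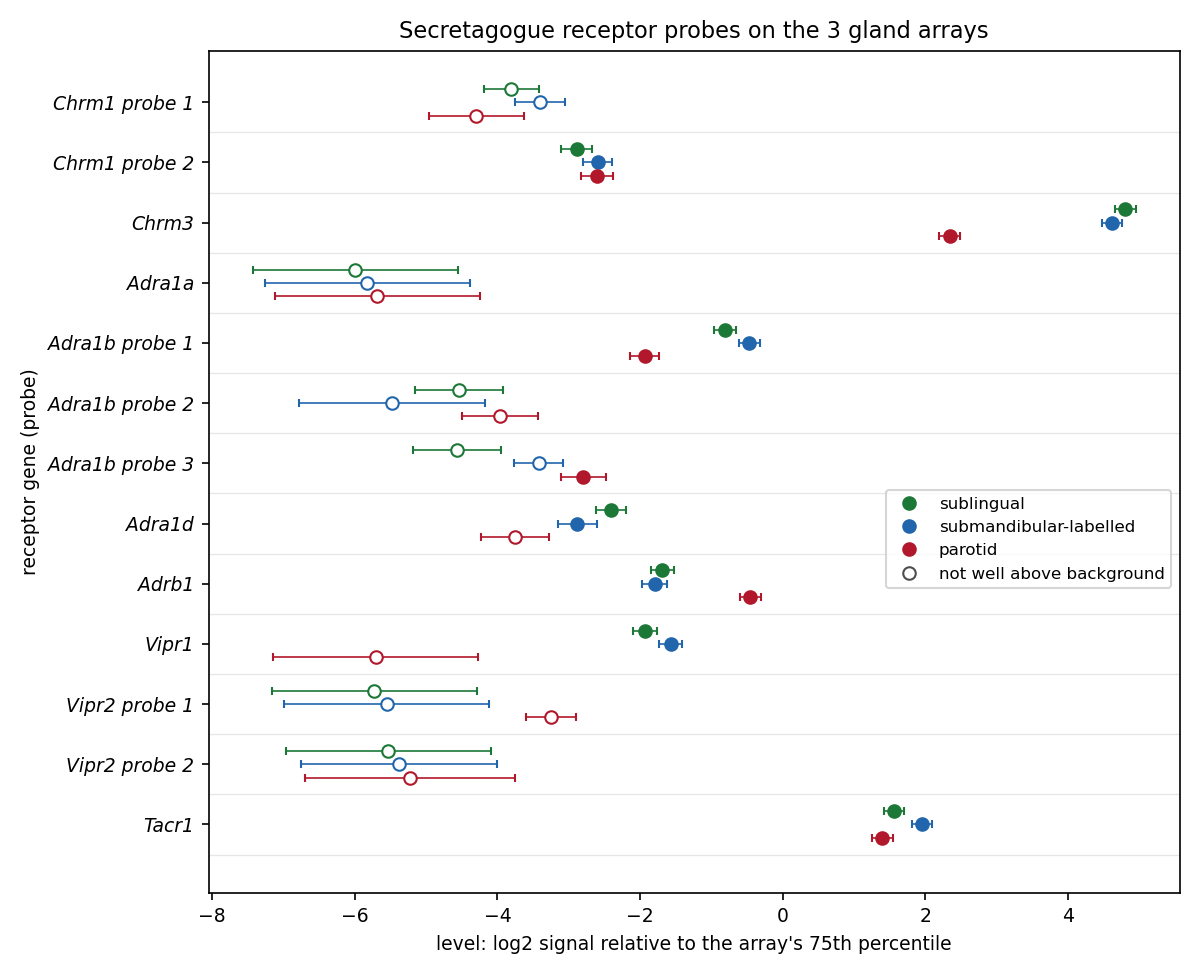
Log2 level of each receptor probe relative to its array's 75th percentile, on the sublingual, submandibular-labelled and parotid arrays, with filled points for probes well above background, open points for the rest, and bars for the scanner software's error of that 1 value. Chrm3 sits at 4.80 and 4.62 against 2.34 in the parotid, and Adrb1 at -1.69 and -1.79 against -0.45; the order of different probes along the axis is not an order of expression.

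Adrb1, the beta-1 receptor that couples to Gs and drives protein release from serous cells, ran the other way. Its probe (rn4 chr1:263026686-263026745) read 75.8 on the sublingual array and 65.8 on the submandibular-labelled array, against 136 on the parotid array. The parotid was the high gland, and the other two lay within 0.11 (log2) of each other. Adrb1 was 2.35-fold lower in the sublingual than in the parotid (-1.23, software errors 0.16 and 0.15) and 2.53-fold lower in the submandibular-labelled gland than in the parotid (-1.34, errors 0.17 and 0.15). These differences were larger than those of 83.2% and 87.2% of genes compared. With a model-based background correction (normexp) they were -0.83 and -0.82 and no longer reached 2-fold. That correction was run with an offset of 50 added to every signal, which shrinks the differences of dim probes here and below.

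Adra1b, the alpha-1B receptor, was read by 3 probes that did not give the same order of glands. Probe 1 (rn4 chr10:28889289-28889348) was the brightest and gave 139 on the sublingual array and 165 on the submandibular-labelled array, against 48.6 on the parotid array, well above background on all. By that probe Adra1b was 2.18-fold higher in the sublingual than in the parotid (1.12) and 2.77-fold higher in the submandibular-labelled gland than in the parotid (1.47), with software errors of 0.15 to 0.20.

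Probe 3 (rn4 chr10:28945881-28945941) gave 10.3 on the sublingual array and 21.3 on the submandibular-labelled array, against 26.8 on the parotid array, and passed the background limit on the parotid array alone. By it the gene was at least 1.92-fold lower in the sublingual than in the parotid. In the submandibular-labelled gland it came out 1.54-fold lower than in the parotid. That fold uses the value of 21.3 itself, which failed the limit, so it is not a firm minimum. Probe 2 (rn4 chr10:28890098-28890157) stayed near background, at 10.5, 5.13 and 11.9 on the sublingual, submandibular-labelled and parotid arrays. The direction for Adra1b therefore rests on probe 1. The median of the 3 probes on each array, in place of the brightest, gave -1.74 for sublingual minus parotid and -0.63 for submandibular-labelled minus parotid. That median was probe 2 on the sublingual array and probe 3 on the others. The value of -1.74 thus sets different probes against each other and is not a difference of 1 probe. The median probe was well above background on the parotid array alone. With normexp, probe 1 gave 0.38 and 0.67, under 2-fold.

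Adra1d, the alpha-1D receptor, read 45.8 on the sublingual array and 31.0 on the submandibular-labelled array, against 13.8 on the parotid array, where it was not well above background. The sublingual was highest, 1.38-fold above the submandibular-labelled gland (0.47, software errors 0.21 and 0.28). Relative to the parotid, Adra1d was at least 2.03-fold higher in the sublingual and at least 1.47-fold higher in the submandibular-labelled gland. The sublingual bound was 0.15 (log2) with normexp. Alpha-1D receptors are best known from vascular smooth muscle. Markers of smooth muscle and pericytes, all 6 of them on the array, summed to 206, 146 and 137 times the 75th percentile on the sublingual, submandibular-labelled and parotid arrays. Notch3 alone gave 199.6, 140.4 and 130.1 of these, and without it the sums were 6.14, 5.83 and 7.16. Of the 5 compared, 2 were above the parotid and 3 below it on each array, with medians of -0.16 for the sublingual and -0.17 for the submandibular-labelled array. None was 2-fold apart, where 24.8% and 21.9% of all genes were. Myocd was not well above background on any array, and the part of these cells in the Adra1d values was not tested. Adra1a, the alpha-1A receptor, was not well above background anywhere, with 3.83, 4.02 and 3.62 on the sublingual, submandibular-labelled and parotid arrays.

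Vipr1, the VPAC1 receptor that couples to Gs, was well above background on the arrays with mucous markers and not on the parotid array. The probe, for which the array gives no position, read 63.9 on the sublingual array and 76.8 on the submandibular-labelled array, against 3.56 on the parotid array. The parotid value was the lowest of the 3 by a wide margin, and a value this low is not a measured level. Vipr1 was at least 2.83-fold higher in the sublingual and at least 3.64-fold higher in the submandibular-labelled gland than in the parotid. The submandibular-labelled gland was 1.29-fold above the sublingual, a log2 difference of -0.36 for sublingual minus submandibular-labelled against software errors of 0.17 and 0.16. The bounds depend on where the detection limit is set. With the software's looser limit (signal positive and significant) they became 13.7-fold and 17.6-fold. Those use the parotid value of 3.56 itself, which failed that limit too, so they are not firm minima. With normexp the bounds were 0.72 and 0.91 (log2), under 2-fold.

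Vipr2, the VPAC2 receptor, was not well above background by either probe. Probe 1 (rn4 chr6:143416188-143416247) read 4.61 on the sublingual array and 4.85 on the submandibular-labelled array, against 19.6 on the parotid array, where alone it passed the looser limit. At that limit Vipr2 came out 5.58-fold lower in the sublingual and 4.95-fold lower in the submandibular-labelled gland than in the parotid. These folds use the values of 4.61 and 4.85 themselves, which failed that limit, so they are not firm minima. The order of readings was opposite to that of Vipr1, but the parotid reading was itself not well above background. Probe 2 gave 5.28, 5.48 and 4.96 on the sublingual, submandibular-labelled and parotid arrays and passed neither limit.

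Tacr1, the NK1 receptor for substance P, was spotted 10 times on each array, which gave the only repeat measurements in the set. The 10 spots (rn4 chr4:116780051-116780110) averaged 720 ± 38.0 (sublingual), 885 ± 32.8 (submandibular-labelled) and 491 ± 21.3 (parotid) (SD over spots of 1 array, a technical error). After scaling, the levels were 1.56 ± 0.07, 1.96 ± 0.05 and 1.40 ± 0.06 (log2, SD, 10 spots each). The submandibular-labelled spots, from 1.88 to 2.03, did not overlap those of either other array. The sublingual spots, from 1.49 to 1.69, overlapped the parotid spots, from 1.31 to 1.51, by a narrow margin. Tacr1 was 1.47-fold higher in the submandibular-labelled gland than in the parotid (0.56), 1.12-fold higher in the sublingual than in the parotid (0.16) and 1.32-fold lower in the sublingual than in the submandibular-labelled gland (-0.40). All stayed under 2-fold. Of the genes compared, 52.6%, 14.5% and 73.9% had a smaller difference than Tacr1 in these comparisons, in the same order. The software error of Tacr1 was 0.14 (log2) on each array, larger than the SD over spots. Whether spots overlap concerns repeats of 1 probe within an array and does not stand for replicate glands.

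**Figure D2:**
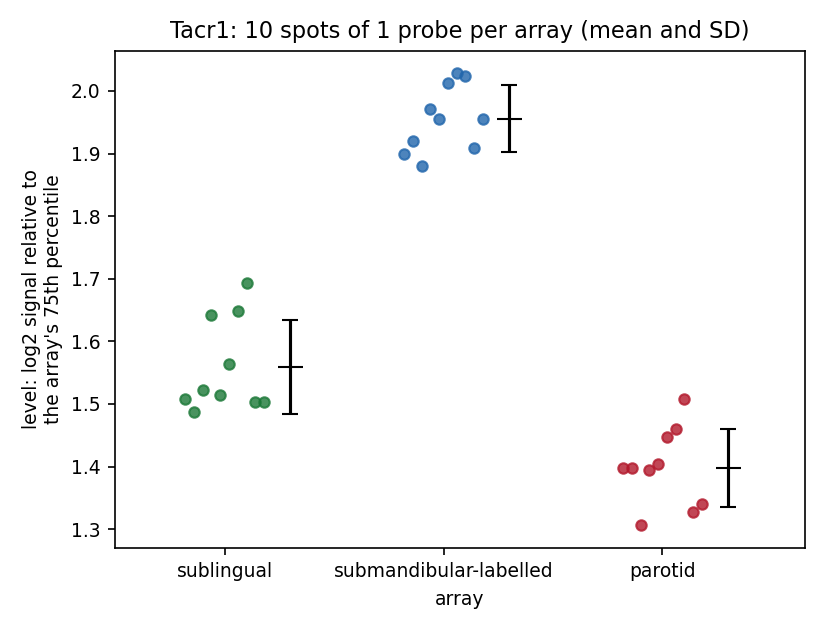
Level of each of the 10 Tacr1 spots on the sublingual, submandibular-labelled and parotid arrays (log2, relative to the array's 75th percentile), with the mean and SD over spots. The submandibular-labelled spots lie above all others at a mean of 1.96, and the sublingual and parotid spots, at means of 1.56 and 1.40, overlap slightly.

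Across the set, 5 of the 7 genes compared were at least 2-fold apart between sublingual and parotid, 4 higher in the sublingual (Chrm3, Vipr1, Adra1b and Adra1d) and 1 lower (Adrb1), where 24.8% of all 10926 genes compared were that far apart (12.5% higher and 12.3% lower). Between submandibular-labelled and parotid, 4 of 7 were, 3 higher in the submandibular-labelled gland (Chrm3, Vipr1 and Adra1b) and 1 lower (Adrb1), against 21.9% of 10915 genes (10.9% higher and 11% lower). Between sublingual and submandibular-labelled, 0 of 7 were, against 1.56% of 10487 genes. Vipr1, and Adra1d in its comparison of sublingual with parotid, entered these counts only through the arrays where they were high, so the counts are a description and no support for a shared direction. Both comparisons with the parotid use the same parotid array. The median difference of the 7, taken as sublingual minus parotid, submandibular-labelled minus parotid and sublingual minus submandibular-labelled, was 1.02, 0.56 and -0.29, beside 0.06, 0.10 and -0.05 over all genes compared. The value of 1.02 is the bound of Adra1d. For the 5 members well above background on all 3 arrays the medians were 0.16, 0.56 and -0.29, beside 0.11, 0.14 and -0.05 over the 9513 such genes. Of those 5, 3 were at least 2-fold apart in each comparison with the parotid (2 higher and 1 lower), where 22.1% and 19.3% of such genes were. At 4-fold only Chrm3 remained in both comparisons with the parotid, where 5.9% and 5.67% of genes were that far apart, and with normexp Chrm3 was also the only member past 2-fold, where 14.5% and 12.3% of genes were. The offset of 50 in normexp shrinks the differences of dim probes. The other members past 2-fold had low signals, so normexp cannot decide whether their differences hold.

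**Figure D3:**
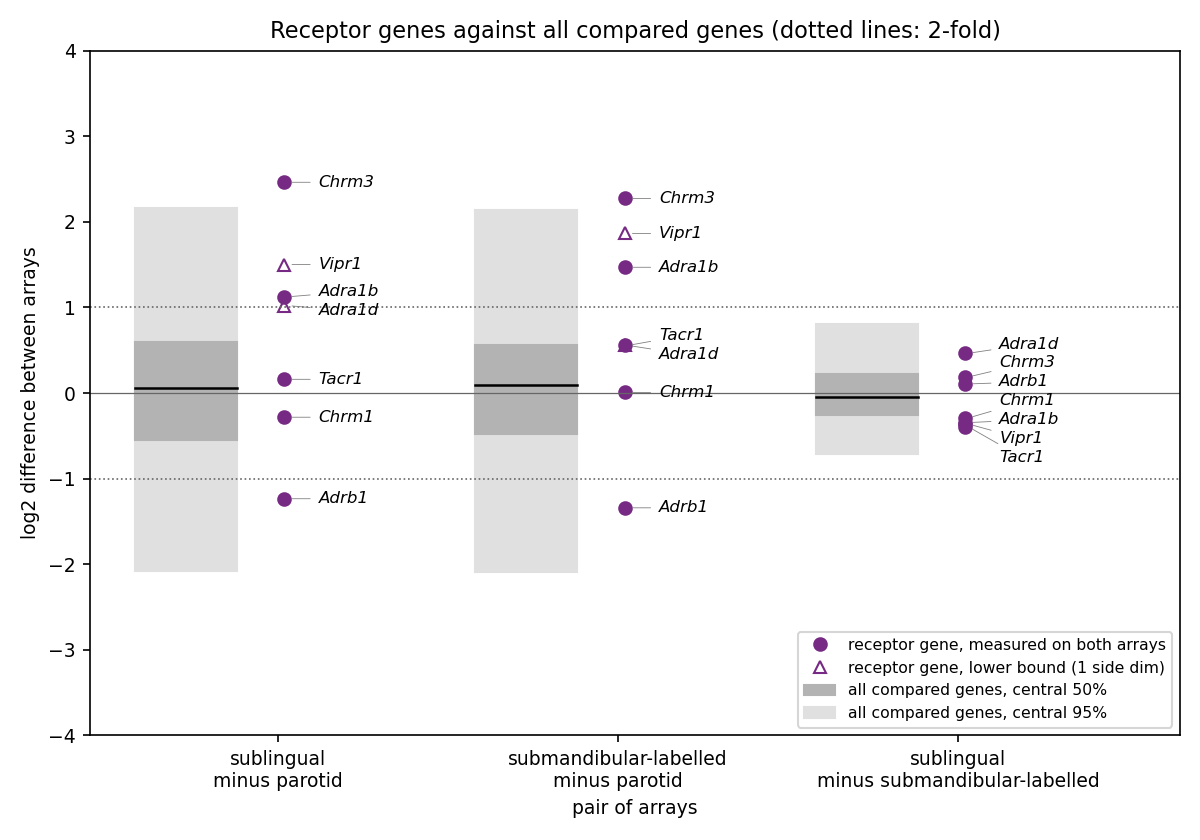
Log2 difference of each compared receptor gene, by its brightest probe, for each pair of arrays, with open triangles for lower bounds, dotted lines at 2-fold, and grey bands and a black line for the central range and median of all genes compared. Chrm3 lies at 2.46 and 2.27 against the parotid, Adrb1 at -1.23 and -1.34, and no receptor reaches 2-fold between the sublingual and submandibular-labelled arrays.

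The genes that carry these receptors' signals were followed as a list of 64, of which 61 were on the array. Between sublingual and parotid, 14 of 55 compared were at least 2-fold apart (3 higher and 11 lower in the sublingual, median -0.19), and between submandibular-labelled and parotid 13 of 54 (4 higher and 9 lower, median -0.02). Both shares are close to those of all genes given above. Between sublingual and submandibular-labelled 0 of 52 were, with a median of -0.17.

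On the cyclic AMP side, the adenylyl cyclases, which make cyclic AMP, included several that were lower outside the parotid. Of 8 compared, 5 were at least 2-fold lower in the sublingual and 4 in the submandibular-labelled gland than in the parotid, where 12.3% and 11% of all genes were, and 0 were 2-fold higher. Adcy3 and Adcy4 passed the background limit on the parotid array alone and so could enter only as lower. Among the 6 cyclases well above background on all 3 arrays, 4 and 3 were at least 2-fold lower, where 9.59% and 8.64% of the 9513 such genes were, with median differences of -1.21 and -0.89. Adcy9 stood at 1.46 on the sublingual and 1.94 on the submandibular-labelled array, against 3.91 on the parotid array (log2 levels), and was 5.48-fold and 3.92-fold lower than in the parotid. Its second probe gave -2.57 and -2.01 (log2), close to the -2.45 and -1.97 of the first. Adcy2 was 2.40-fold lower in the sublingual and 3.24-fold lower in the submandibular-labelled gland. Adcy7 was 2.22-fold lower in the sublingual than in the parotid and 1.75-fold lower in the sublingual than in the submandibular-labelled gland. The other cyclases past 2-fold, named after their values were seen, were Adcy8, at -1.56 in the sublingual and -1.43 in the submandibular-labelled gland (log2 relative to the parotid), and Adcy4, for which the minimum was 2.43-fold lower in the sublingual and 2.52-fold lower in the submandibular-labelled gland. Gnas, which encodes the Gs alpha subunit between the beta receptors and the cyclases and was also picked after its values were seen, had levels of 5.48, 5.93 and 6.08 on the sublingual, submandibular-labelled and parotid arrays, less than 2-fold apart.

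Phosphodiesterases of the PDE4 family, which break cyclic AMP down, differed in both directions. Pde4a had levels of -2.51 on the sublingual and -2.11 on the submandibular-labelled array, against 0.60 on the parotid array, 8.61-fold and 6.51-fold lower than in the parotid, the largest measured differences in the list. Pde4b differed by -1.68 and -1.32 (log2) in the same comparisons. Pde4d, named after its values were seen, exceeded its parotid level by 1.35 in the sublingual and by 1.44 in the submandibular-labelled gland (log2). Pde3b, which also breaks down cyclic AMP, was at least 1.85-fold higher in the sublingual than in the submandibular-labelled gland, and Prkar1b, a regulatory subunit of protein kinase A, at least 1.78-fold lower. None of the 4 protein kinase A genes compared was 2-fold apart between submandibular-labelled and parotid, and Prkar1b, at least 2.26-fold lower, was the only one between sublingual and parotid.

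On the calcium side, Gna14, a Gq-class alpha subunit, had levels of 1.75 on the sublingual and 1.71 on the submandibular-labelled array, against 0.03 on the parotid array. By the brighter probe it exceeded the parotid 3.29-fold and 3.21-fold, and the dimmer probe gave 0.75 and 0.88 (log2), under 2-fold in the same direction. The other 7 G protein genes compared did not pass 2-fold against the parotid, nor did any of the 3 phospholipase C beta genes or 4 protein kinase C genes compared, lower bounds included. Of 10 calcium release and entry genes compared, Trpc1, a calcium entry channel subunit, was at least 4.61-fold higher in the sublingual and at least 2.69-fold higher in the submandibular-labelled gland, as its parotid probe was not well above background. Trpc1 was also 1.71-fold higher in the sublingual than in the submandibular-labelled gland. Itpr3, an inositol trisphosphate receptor that releases stored calcium, was lower by -1.53 and -1.27 (log2) than in the parotid, and Atp2a3, a calcium pump of the endoplasmic reticulum, was just past 2-fold higher in the submandibular-labelled gland, by 1.004 (log2), and 0.66 higher in the sublingual, both named after their values were seen. Itpr2 was 1.64-fold lower in the sublingual than in the submandibular-labelled gland by its brightest probe, while its other probes gave -0.24 and 0.31 (log2).

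Among genes that end the signal, Arrb1, the arrestin that uncouples beta receptors, had levels of -1.90 on the sublingual and -1.66 on the submandibular-labelled array, against -0.02 on the parotid array, 3.70-fold and 3.12-fold lower. Rgs2, which shortens Gq signalling, was 2.06-fold and 2.73-fold lower than in the parotid. The other 5 receptor kinase and arrestin genes and the other 5 RGS genes compared did not pass 2-fold against the parotid. Among them Rgs5, an RGS gene of pericytes, was 1.62-fold lower in the sublingual than in the submandibular-labelled gland.

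**Figure D4:**
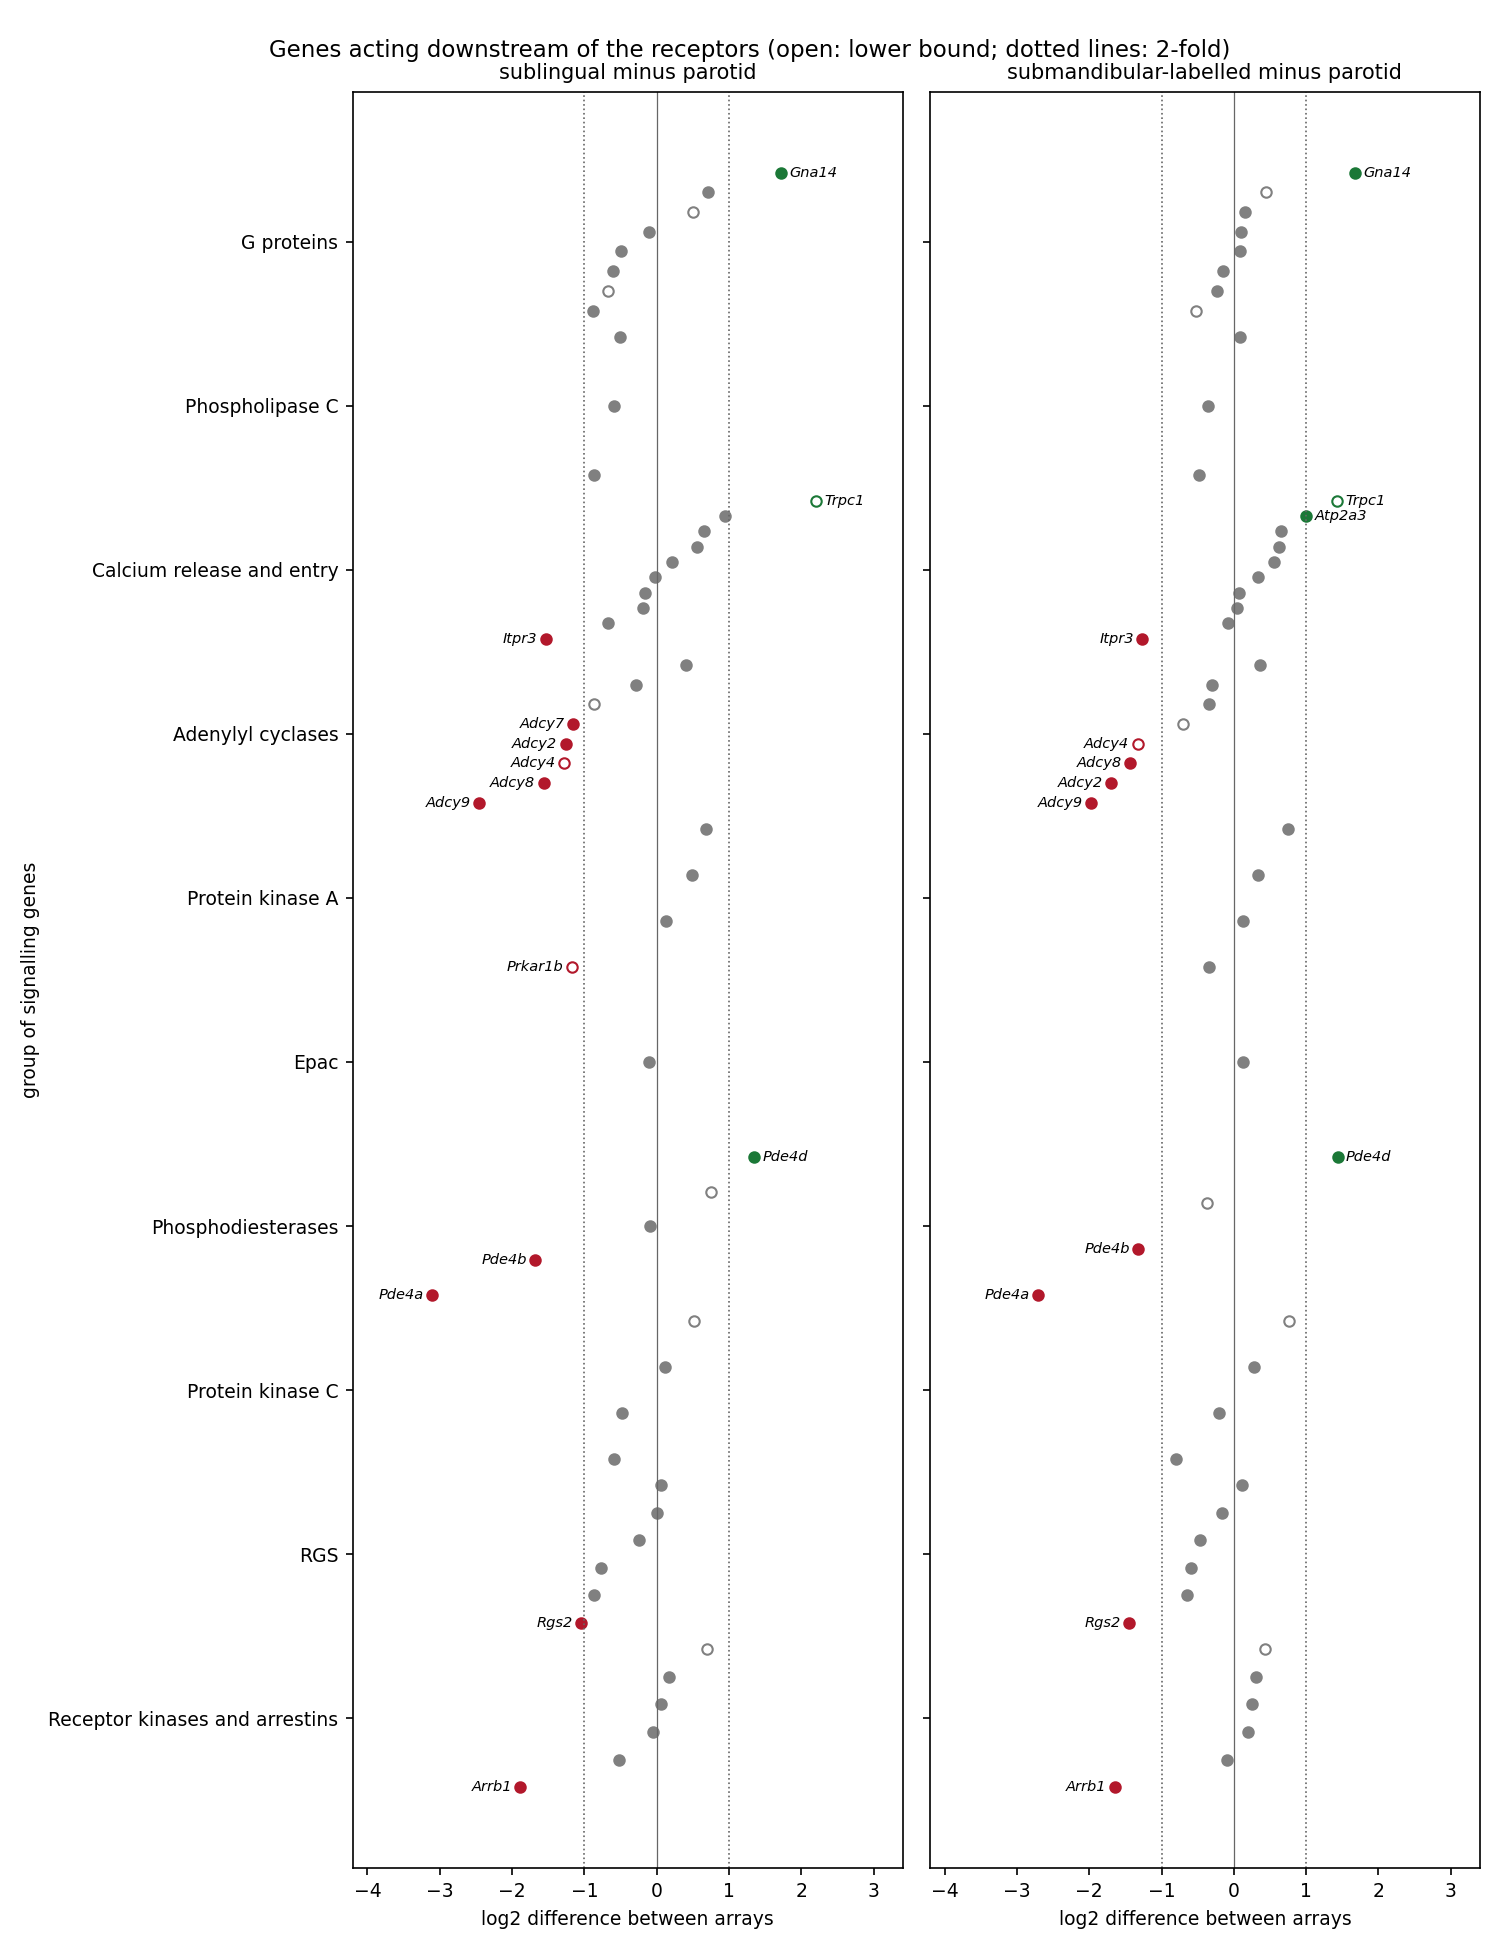
Log2 differences from the parotid of the signalling genes, grouped by role, for the sublingual and submandibular-labelled arrays, with 1 point per gene, open points for lower bounds and dotted lines at 2-fold, beyond which genes are named and coloured green (higher) or red (lower). The adenylyl cyclases lie mostly to the lower side, with Adcy9 at -2.45 and -1.97, whereas Gna14 lies at 1.72 and 1.68.

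A further 37 receptors of the same transmitter families or of other known secretagogues were all on the array, and most were near background. Only 15 could be compared between sublingual and parotid, of which 5 were at least 2-fold apart (2 higher and 3 lower in the sublingual, against 24.8% of all genes), 14 between submandibular-labelled and parotid, of which 5 were (2 higher and 3 lower, against 21.9%), and 13 between sublingual and submandibular-labelled, of which 0 were (against 1.56%). With so few compared, counts near these shares cannot be set apart from them. Sstr1 passed the background limit on the parotid array alone and so could enter only as lower, and the value of Sstr2 for sublingual against parotid is a bound. P2rx4, an ATP-gated channel, had levels of 4.16 on the sublingual and 4.14 on the submandibular-labelled array, against 2.89 on the parotid array, 2.40-fold and 2.38-fold higher. Adra2a, the alpha-2A receptor, which couples to Gi, was 2.09-fold and 2.37-fold higher. P2ry2, a Gq-coupled receptor for ATP and UTP, was 3.27-fold and 2.60-fold lower than in the parotid.

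The somatostatin receptors Sstr1 and Sstr2, which couple to Gi, were lower in the sublingual than in the parotid, by at least 2.27-fold for Sstr1 and at least 2.41-fold for Sstr2. In the submandibular-labelled gland Sstr1 was at least 2.20-fold lower and Sstr2 1.78-fold lower. Ramp1, which forms the receptor for calcitonin gene-related peptide with a partner, was 1.57-fold lower in the sublingual and 2.19-fold lower in the submandibular-labelled gland. The M4 receptor Chrm4, near background, was 1.66-fold lower in the sublingual and at least 1.94-fold lower in the submandibular-labelled gland, and Tacr2, the neurokinin A receptor, was at least 1.73-fold lower in the sublingual and 1.35-fold lower in the submandibular-labelled gland. Between sublingual and submandibular-labelled, Adra2b differed by -0.62, Chrnb4 by -0.39, Ramp3 by -0.36 and Ramp1 by 0.48 (log2), all under 2-fold.

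Markers of other cell types, beyond the acinar and granular duct lists given above, also differed between the arrays, several of them in both directions within a list. Myoepithelial markers, 8 of 10 on the array, summed to 62.1, 77.4 and 29.5 times the 75th percentile on the sublingual, submandibular-labelled and parotid arrays. Against the parotid, 5 of 7 reached 2-fold higher in the sublingual and 1 reached 2-fold lower, and in the submandibular-labelled gland 6 were higher and 1 was lower. Oxtr was not well above background on any array.

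General duct markers (8 genes) summed to 863, 928 and 508 times on the same arrays, of which Krt18 gave 660, 693 and 409. Against the parotid, 3 reached 2-fold higher and 3 reached 2-fold lower in the sublingual, and 3 and 1 did in the submandibular-labelled gland. The lower ones, named after their values were seen, were Slc12a2 (-1.33 and -1.40 for the sublingual and submandibular-labelled arrays), Ascl3 (-1.17 and -0.90) and Cftr (-1.59 and -0.91), on the log2 scale.

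Endothelial markers (8 genes) summed to 12.2, 10.5 and 18.9 times, mostly from Kdr, and to 1.24, 1.51 and 2.16 without it. Of 7 compared, 4 were at least 2-fold lower in the sublingual and 1 in the submandibular-labelled gland, and 0 were 2-fold higher. Pecam1, Tie1 and Flt1 passed the background limit on the parotid array alone and so could enter only as lower. Schwann cell and axon markers (10 genes) summed to 9.88, 12.5 and 27.7 times, but to 4.56, 4.43 and 4.85 without Sox10. Of 8 compared, 2 were at least 2-fold lower in the sublingual and 4 in the submandibular-labelled gland, while 3 lay above the parotid on each array.

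Immune markers (7 of 8 on the array) summed to 44.2, 52.4 and 69.2 times, and in the other direction, to 29.0, 32.8 and 17.2 times, without Cd74. On each of the other arrays, 2 of the 5 compared reached 2-fold higher and 2 reached 2-fold lower, relative to the parotid. Cd14 was 9.35-fold higher in the sublingual and 11.3-fold higher in the submandibular-labelled gland. Cd52, named after its values were seen, was at least 16.9-fold and 12.4-fold higher. Adipocyte markers (6 genes) summed to 0.878, 0.810 and 2.62 times, and both that could be compared were lower than in the parotid. The part of these cell types in the receptor values was not tested.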

How the data were processed

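Each deposited file lists intensity values per spot (processed signal, spot mean, background, software error) made, per the file headers, with Agilent Feature Extraction 10.1.1.1, protocol GE1-v5_10_Apr08, design 014879, with rn4 coordinates. Spatial and multiplicative detrending were on and low signals were replaced by surrogates, so the lowest signals are not measured levels. Deposited flags mark spots as well above background, as saturated or as outliers. A further table by the authors gives a linear ratio per spot, found to be the processed signal over a constant of 250 (sublingual), 236 (submandibular-labelled) or 190 (parotid). That match settles its scale and direction, no gene was centred, and its medians are 0.128, 0.122 and 0.152.

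The levels are log2 of the deposited processed signal minus the array's 75th percentile over probes. Control spots and outlier spots (73, 79 and 68) were left out, repeat spots were averaged, and 0 spots were saturated. The lowest level well above background was -3.74, -3.58 and -3.43. A lower bound is the bright level minus that limit or the dim probe's level, whichever is higher on the dim array. RefSeq (GRCr8) named 20653 of 41012 probes (11054 by accession, 4993 by symbol, 3339 by older symbol, 1031 by gene identifier, 236 by description), giving 16138 genes, of which 63.9%, 62.8% and 64.6% were well above background. The brightest probe stood for a gene. Exon positions of the rn4 probes were not used here. Repeat spots had a median SD of 0.086, 0.080 and 0.090 (log2). The number of arrays limits the precision.

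Members, lists and thresholds were chosen with earlier results of these data known. Named were every member by each probe, per list and pair up to 6 genes with the largest bounded difference, up to 3 genes per marker list, and for members well above background on all 3 arrays and at least 2-fold apart the 3 genes nearest in their differences from the parotid. Of these last, 1 gene is not reported here. The alternatives were normexp (offset 50, limma 3.58.1, R 4.3.3), quantile normalization, centring on the median, the deposited ratios, a 4-fold threshold, a looser detection flag, outlier spots kept and the median of a gene's probes. Python 3.11.15, numpy 2.4.6, pandas 2.3.3, scipy 1.17.1 and matplotlib 3.10.9 were used, and the counting step was tested on simulated data.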

Additional observations from a re-analysis of the deposited data

How the results depend on the processing

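Counts of genes at least 2-fold apart moved as follows, with sublingual against parotid before submandibular-labelled against parotid. At 4-fold (5.9% and 5.67% of all genes) the receptors numbered 1 and 1, the signalling genes 3 and 1, and the other receptors 0 and 0. With normexp, where 14.5% and 12.3% of all genes passed 2-fold, the receptors numbered 1 and 1 of 7, a share near that of all genes, the signalling genes 7 of 54 and 8 of 53, and the other receptors 1 and 1 of 14. Its offset of 50 shrinks the differences of dim probes, so the loss of dim genes there does not decide whether they differ. The other receptors numbered 3 of 15 and 3 of 14 with quantile normalization (22.3% and 21% of all genes) and 3 of 14 between submandibular-labelled and parotid with centring on the median (26.4%). The looser detection flag, which admits probes near background, gave 16 and 15 of 28 (30.2% and 28.2%), and between sublingual and submandibular-labelled 3 of 57 signalling genes and 3 of 23 other receptors (8.4%). The median of a gene's probes gave 1 receptor between sublingual and submandibular-labelled, Adra1b. That median was probe 2 on the sublingual array and probe 3 on the others, so this call sets different probes against each other. Neither was well above background on its array. Adra1b's difference from the parotid by that median was looked at only after seeing the data. It was -1.74 for the sublingual array, again across probes, and -0.63 for the submandibular-labelled array, within probe 3. Why the probes differ was not tested. Centring on the median shifted the median gene to 0.32 and 0.44 above the parotid, and put Adrb1 at -0.996 for sublingual minus parotid, just under 2-fold. Of all genes past 2-fold between submandibular-labelled and parotid, 49.8% were higher, against 73.9% with that centring, 62.3% with normexp and 39.9% with the looser flag. Between sublingual and parotid 50.4% were higher, against 69.2%, 65.1% and 41.5%, and between sublingual and submandibular-labelled 62.2%, against 48.5% with that centring, 51.3% with quantile normalization and 50.9% with the looser flag. Chrm3 stayed between 2.14 and 2.70 for sublingual minus parotid and between 2.09 and 2.58 for submandibular-labelled minus parotid under every alternative run. In the other 52 recounts of these lists the count stayed within 1.5 times. No paired analysis was possible because each gland has 1 array. Signal over background limits Chrm1, Adra1a, Vipr2 and the parotid values of Vipr1 and Adra1d.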

Other observations

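Of 9513 genes past the background limit in every gland, those closest in pattern to Chrm3 were Acsl1, a fatty acyl-CoA synthetase, Zdhhc2, a palmitoyltransferase, and Slc50a1, a sugar transporter. Their distances from Chrm3, over the differences of the sublingual and submandibular-labelled arrays from the parotid, were 0.04, 0.04 and 0.11 (log2). Acsl1 had levels of 6.16, 6.02 and 3.74 on the sublingual, submandibular-labelled and parotid arrays. Genes near Adra1b by its brightest probe included Spint1, a protease inhibitor, and Fry, both at 0.05. The nearest to Adrb1 were Fgd6, Adgrl4, an adhesion receptor best known from endothelium, and Efna3, an ephrin, at 0.02, 0.04 and 0.04. Adgrl4 had levels of 0.88 and 0.80 on the sublingual and submandibular-labelled arrays, against 2.15 on the parotid array. These distances use 3 arrays and describe likeness only.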
